A study of Mus musculus with 5375 samples.

Results

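The cells described here are the tumor cells (TCs) recovered from mouse lungs 3.5 days after injection and separated by how much of a division-counting dye they had kept. They were taken by the sort gate that the deposited tables name, with no further cut on cell cycle state. The gates held 768 sorted cells, of which 566 passed the authors' filters, against 1566 TCs that the deposited tables keep in the whole series, which is not the number that the study's text gives, and 5375 sorted cells of all kinds. The dye-retaining gate is called latent and the dye-diluted gate proliferative.

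All TCs were 4T1-GFP cells, made from a mammary carcinoma line of BALB/c mice by adding green fluorescent protein. They were stained with CellTrace, a dye that binds cell proteins and is shared out between the daughters at each division, and injected into the tail vein of wild-type female BALB/c mice of 8 to 12 weeks. No gene was altered and no drug was given in the groups used here. The boundary between the gates was set on a mouse killed on day 1.5, whose TCs were taken as undivided, and the study states that its gates enriched the fractions without making them pure. Each gate thus marks division history since staining and not the state of a cell when it was sorted. TCs of day 1.5, sorted as intravascular or extravascular by an antibody injected into the blood, and uninjected TCs from culture are given only as reference levels.

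Disseminated cancer cells can stop dividing for long periods after they reach an organ, a state called latency or dormancy. A cell that leaves the cycle stops making the machinery of DNA replication, which is transcribed mainly through E2F factors in late G1 and S phase, and later that of mitosis, which is transcribed through the CHR promoter element. Work on other models has tied dormancy to Cdk inhibitors, stress kinases, transforming growth factor-β, interferon and contacts with laminin and fibronectin in the basement membrane.

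In the latent gate 80, 85, 84 and 80 of 96 sorted cells were kept per animal, and these are named latent libraries 1 to 4. In the proliferative gate, of which 4 such plates were sorted, 61.7% of the cells were kept. The labels give each gate 4 replicates, but the cell annotation names a single animal for every proliferative cell, the same that it names for latent library 4, so those cells were summed as 1 pool without replicates. The methods of the study call the gates matched fractions, so the pool may hold cells of any animal behind the latent libraries, and the tests below treat the pool and these libraries as unrelated. The summed libraries held 31.9 to 44.97 M reads in the latent gate and 163.5 M in the pool. Median reads per cell were 459916 to 580355 against 718192, and median detected genes 6554.5 to 6869.5 against 7145. The sample titles carry 1 library code for all cells of the latent gate and another for all cells of the proliferative gate, so gate and library batch cannot be told apart in any value below.

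Tumor epithelial markers summed to 4499.8 to 5984 CPM in the latent libraries and 6441 CPM in the pool, so the label held in both gates. Marker levels here are CPM without TMM scaling. Macrophage markers were uneven, at 285.98 CPM in latent library 1 and 207.02 CPM in latent library 4, against 6.91 to 8.38 CPM in the other latent libraries and 5.98 CPM in the pool. These reads came mainly from 2 cells, 1 in each of those libraries, with Lyz2 at 13566 and 7321 CPM. In these cells Krt8 was at 374.98 and 1082 CPM and Krt18 at 263.45 and 1152 CPM, below the levels of their libraries. A single cell of the pool carried 5 of 9 lung epithelial markers with Sftpc at 6656 CPM. Endothelial markers summed to 5.96 to 27.3 CPM in the latent libraries and 9.88 CPM in the pool, and platelet and erythrocyte markers to 10.2 to 26.6 CPM in the latent libraries and 7.79 CPM in the pool. Lung epithelial markers stood at 39.7 to 128.8 CPM in the latent libraries and 36.7 CPM in the pool, most of it Aqp5, an aquaporin gene, at 121.04, 67.96, 34.6 and 57.5 CPM against 32.4 CPM, read in 32.1% to 46.3% of the cells of a latent library and 39.7% of the pool. The other 8 lung epithelial markers summed to 2.02 to 10.7 CPM and 4.27 CPM. Fibroblast and mural markers stood at 1.43 to 16.9 CPM in the latent libraries and 2.32 CPM in the pool. Lymphocyte and neutrophil markers stayed below 3 CPM in all 5 libraries. Marco, Ly6g, Mmp8, Nkg7, Gzma, Pdgfrb and Lum had no read in any of the 5 libraries. Without the 3 cells named above, a setting chosen after seeing the data, edgeR again called 0 genes in either direction, with 419 genes higher and 401 lower at an unadjusted p under 0.05.

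To ask what separates the gates, summed counts were compared gene by gene across 12255 genes, with 8 day 1.5 libraries adding to the estimate of the spread. These came from 4 animals, each with 1 intravascular and 1 extravascular library, which the fit treated as independent. With only the 5 day 3.5 libraries edgeR also called 0 genes, with 751 higher and 664 lower at an unadjusted p under 0.05 and a smallest adjusted p of 0.0746. At a Benjamini-Hochberg adjusted p under 0.05 the quasi-likelihood test of edgeR called 0 genes higher (0%) and 0 lower (0%) in latent TCs, with a smallest adjusted p of 0.0818. At an unadjusted p under 0.05 it gave 420 genes higher, or 3.43%, and 411 lower, or 3.35%. The Wald test of DESeq2 on the same libraries called 55 genes higher (0.449%) and 35 lower (0.286%). It gave an adjusted p to only 3702 of the 12255 genes, of which these calls were 1.49% and 0.945%, so its shares of all genes are not on the footing of the other tools. Limma-trend on the mean deposited log10 values, in which every cell weighs the same, called 40 of 12253 genes higher (0.326%) and 85 lower (0.694%). With each library centred on its median, limma called 74 higher and 77 lower. All 4 latent libraries lay above the pool for 23.9% of the genes and below it for 24.8%, the background for every count of such genes below. The median log2 fold change over all genes was 0.04 by edgeR and -0.06 on the limma scale. For a single value the 4 animals against 1 pool cannot go below an exact 2-sided permutation p of 0.2, and p-values of the fits assume that the lone pool varies like the other groups.

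DESeq2 and limma called 27 genes in common, 17 higher and 10 lower in latent TCs. These genes were picked after their values were seen, and for each of them all 4 latent libraries lay on one side of the pool. The higher genes included Fn1, Cldn4, Lamb3, Lgals3, Fermt1, Syne1, Dync1h1, Ddit3, Nfkbia, Zfp36l1, Cxcl16, Pmepa1, Crip2, Zfp280d, 4930523C07Rik and Prl2c3. The 10 lower genes were Tipin, Cbx3, Hmga1b, Igfbp4, Tinagl1, St3gal4, Ehd2, Gm28439, Rps15a-ps6 and Ube2n-ps1, of which the last 3 are pseudogenes and Hmga1b is a near copy of Hmga1, so that reads of these 4 may belong to other loci. The adjusted p of edgeR for these 27 genes was at least 0.0961.

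The first question was how far the dye separated cells by cycle state at the time of sampling. Each cell was scored for 43 S-phase and 54 G2M genes, and the share of cells with a summed score above 0 was taken per library. For its own comparison the study set that limit for the proliferative gate and a lower limit of -1 for the latent gate. In the latent libraries 65%, 56.5%, 70.2% and 65% of the cells scored above 0, a mean of 64.2% ± 5.70 (SD, n = 4). In the pool the share was 78.5% (exact Clopper-Pearson 95% interval 72.7% to 83.5%, counting error only). All 4 latent values lay below that of the pool and the difference was -14.3 percentage points. The share in the day 1.5 libraries ran from 70.7% to 81.7% and that of cultured TCs was 55.8%. The 0 of the score is set by the genes it is computed against, so the shares compare libraries and do not count cells in cycle. With the mean log2(CPM + 1) of the same genes as the score, centred on its median over the day 3.5 cells, the shares were 50%, 37.6%, 51.2% and 46.3% in the latent libraries and 55.3% in the pool, a difference of -9.00 percentage points. By that score the day 1.5 libraries ran from 22.7% to 44.9%, below the pool. With every cell thinned to 100000 reads, chosen after seeing the data, the shares were 54.9% to 66.2% and 75.6%, and this left out 20 shallower latent cells and 3 of the pool. With the limit at 0.5 in place of 0 the direction turned, with a mean of 36.2% in latent libraries against 34.2%.

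**Figure D1:**
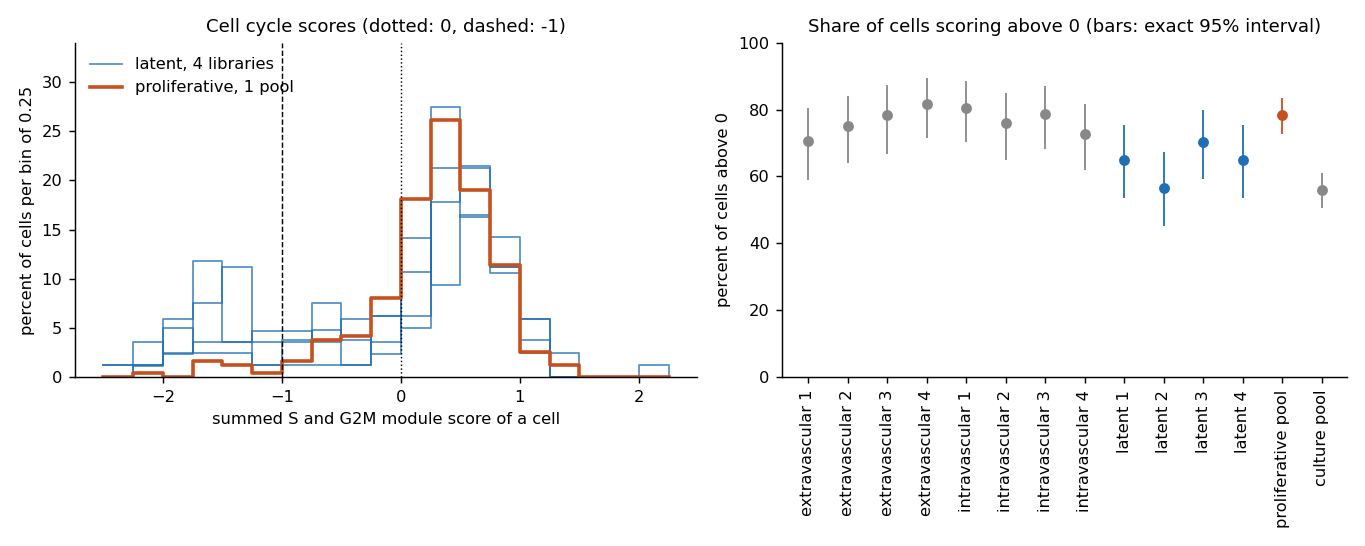
Left, distribution of the summed S and G2M score per library in bins of 0.25 (percent of cells), with thin lines for the 4 latent libraries and a thick line for the proliferative pool. Right, percent of cells scoring above 0 in each of the 14 libraries with exact 95% intervals (counting error only). Cells with scores under -1 are more frequent in each latent library (13.8% to 27.1%) than in the pool (3.80%), while the right-hand part of the distribution overlaps.

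The difference lay in the lower tail of the scores. Cells scoring under -1, the study's cut for latent cells, made up 25%, 27.1%, 16.7% and 13.8% of the latent libraries and 3.80% of the pool (9 cells, exact 95% interval 1.75% to 7.09%). The day 1.5 libraries held between 1.25% and 4.88% of such cells, and culture 17.1%. The median of the summed score over all cells was 0.14 to 0.38 in the latent libraries and 0.36 in the pool. The S and G2M parts of the score were also compared. An S score above 0 was found in 41.2% to 47.6% of latent cells and 63.7% of the pool, without overlap. For G2M the values were 47.1% to 62.5% and 53.6%, with the pool inside the range of the latent libraries. The score is continuous, and 20 latent and 33 proliferative cells lay within 0.1 of the limit.

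The same split was seen gene by gene in the summed counts. Of the 43 S-phase genes 42 had a log2 fold change below 0, with a median of -0.46 (-1.01 on the limma scale) against 0.04 for all genes, and in 35 all 4 latent libraries lay below the pool. At an unadjusted p under 0.05 19 were lower and 0 higher. edgeR called 0 of them after adjustment, while DESeq2 called Slbp, Tipin and Mcm6 lower and limma called 8. Of the 54 G2M genes 30 were above 0 and 24 below, with a median of 0.07 (-0.19 on the limma scale). Libraries lay all above the pool for 12 and all below for 14. edgeR and DESeq2 called 0 of the G2M genes, while limma called 4 lower and 0 higher. Over all genes limma called 0.326% higher and 0.694% lower. The lists were those used for the scores, so these counts and the scores are not separate evidence.

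Slbp, whose protein binds the stem-loop of histone mRNAs and is made in S phase, had the smallest p of the list. It was measured at 53.9, 68.5, 59.2 and 64.3 CPM in latent libraries 1 to 4 and at 120.04 CPM in the pool. No latent library came near the pool, and the log2 fold change was -0.96 ± 0.18 (SE; adjusted p 0.2 by edgeR and 0.000486 by DESeq2). Mcm6, a subunit of the replicative helicase, stood at 32.8, 41.8, 41.7 and 46.3 CPM and 76.9 CPM, with adjusted p of 0.427 by edgeR and 0.0357 by DESeq2. Its partner Mcm5 was at 64.1, 74.5, 79.8 and 85.2 CPM and 115.3 CPM, -0.60 ± 0.20 (SE) on the log2 scale (edgeR adjusted p 0.544, limma 0.0454). Pcna, the sliding clamp of DNA polymerase, showed 206.9, 242.4, 228.3 and 202.7 CPM against 309.02 CPM, again without overlap (edgeR adjusted p 0.6, limma 0.0426). Rrm2, the small subunit of ribonucleotide reductase, was at 55.4, 63.1, 59.6 and 57.6 CPM against 121.2 CPM, the largest gap of these genes at -1.04 ± 0.33 (SE) on the log2 scale (edgeR adjusted p 0.499, limma 0.0349). Tipin, a protector of the stalled fork, stood at 92.8, 85.4, 107.7 and 96.4 CPM and 165.96 CPM (adjusted p 0.368 by edgeR, 0.00906 by DESeq2 and 0.0161 by limma).

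Mitotic and proliferation genes came next. Mki67, which encodes the antigen Ki-67, was measured at 92.7, 93.7, 104.4 and 88.96 CPM in the latent libraries and 80.04 CPM in the pool. All 4 latent values lay above the pool, yet the interval of the log2 fold change ran from -0.26 to 0.75 (edgeR adjusted p 0.933), and on the limma scale the sign turned to -0.17. Top2a, the topoisomerase that untangles chromosomes, stood at 191.6, 161.1, 189.01 and 164.5 CPM around the pool's 167.99 CPM, an interval of -0.32 to 0.46 with a sign that turned under 6 alternatives. Cdk1, the kinase that drives entry into mitosis, was at 431, 386, 467 and 380.4 CPM and 393 CPM with an interval of -0.50 to 0.67, and its sign also turned under 6. Ccnb1, a cyclin partner of Cdk1, showed 53.8, 65.3, 94.9 and 83.8 CPM and 90.03 CPM, and Ccnb2, the other, 183.6, 139.9, 222.5 and 245.03 CPM and 274.1 CPM (limma adjusted p 0.0108, edgeR 0.784). For Birc5, which encodes survivin, 537, 338.8, 565 and 661 CPM bracketed the pool's 578 CPM, and its fold change turned sign without latent library 2.

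Among the 13 tested G1 cyclins and kinases, 8 had all latent libraries below the pool and 1 above, with a median of -0.44. Ccnd1, the D cyclin that answers growth signals, was at 848, 1019, 1048 and 1177 CPM in the latent libraries and 1642 CPM in the pool, without overlap (log2 fold change -0.68 ± 0.25 (SE), adjusted p 0.594 by edgeR and 0.00956 by limma). Tfdp1, the dimer partner of E2F factors, stood at 16.4, 17.3, 18.8 and 20.8 CPM and 37.8 CPM (edgeR adjusted p 0.56). Ccnd2 was the exception, at 113.5, 92.3, 100.7 and 87.9 CPM against 66.5 CPM (edgeR adjusted p 0.6). Ccne1 was low and uneven, at 1.88, 10.4, 10.47 and 4.68 CPM against 14.5 CPM.

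Of the Cdk inhibitors and pocket proteins 7 of 10 were tested, with a median of 0.27 and 1 at an unadjusted p under 0.05. That gene was Cdkn1a, which encodes p21, at 106.6, 80.2, 85.1 and 127.3 CPM in the latent libraries against 39.6 CPM in the pool. Every latent value was above the pool, 1.33 ± 0.55 (SE) on the log2 scale (edgeR adjusted p 0.682, DESeq2 0.311). The 14 tested p53 targets as a list had a median of 0.08 (-0.16 on the limma scale), with 2 all above and 4 all below the pool. Cdkn1b, or p27, a marker of quiescence in many models, stood at 51.4, 39.4, 39.2 and 49.2 CPM and 37.2 CPM, with an interval of -0.31 to 0.85. Cdkn1c, or p57, had no read in these 5 libraries. Myc was measured at 79.7, 94.6, 75.5 and 98.6 CPM and 100.6 CPM, an interval of -0.68 to 0.26.

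The 2 cycle lists differ in the letters at their promoters, which are shown for a gene of each list, 1 whose list lay mostly below the pool and 1 whose list did not. RefSeq promoters (GRCm38.p6, 250 bases before to 50 after the annotated start) were found for 31 of the 43 S-phase genes and 47 of the 54 G2M genes and searched on both strands. The E2F motif TTTNNCGC was in 14 of 31 S-phase promoters (45.2%), 4 of 47 G2M promoters (8.51%) and 5.27% of all 27025 promoters. The CHR element TTTGAA was in 32 of 47 G2M promoters (68.1%), 5 of 31 S-phase promoters (16.1%) and 18.1% of all. Capitals mark the matches, E2F in Mcm6 (where a pair on opposite strands overlaps) and CHR in Mki67, each read 5′ to 3′ on the strand of the gene, which is minus for both.
Mcm6, chr1:128359656-128359955: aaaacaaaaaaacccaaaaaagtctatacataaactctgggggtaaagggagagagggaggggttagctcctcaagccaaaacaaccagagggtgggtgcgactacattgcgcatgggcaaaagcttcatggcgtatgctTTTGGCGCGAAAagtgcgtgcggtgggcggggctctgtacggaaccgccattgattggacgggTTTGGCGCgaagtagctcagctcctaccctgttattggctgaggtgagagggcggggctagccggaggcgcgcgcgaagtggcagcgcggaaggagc
Mki67, chr7:135716330-135716629: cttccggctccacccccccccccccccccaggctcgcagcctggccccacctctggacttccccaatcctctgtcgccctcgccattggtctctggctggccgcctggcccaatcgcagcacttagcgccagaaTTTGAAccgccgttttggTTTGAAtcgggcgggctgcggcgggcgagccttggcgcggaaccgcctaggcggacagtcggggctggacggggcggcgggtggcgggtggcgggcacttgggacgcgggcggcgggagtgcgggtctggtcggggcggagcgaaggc

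Of the 27 genes, the smallest adjusted p of edgeR belonged to Lgals3 (chromosome 14, 47367751 to 47386160, plus strand), which encodes galectin-3, a secreted lectin that binds laminin and fibronectin. It was measured at 2449, 2386, 1919.6 and 1885 CPM in the latent libraries and 816 CPM in the pool, 2.65-fold higher on average. The lowest latent library was still far above the pool. Its log2 fold change of 1.404 ± 0.23 (SE) had adjusted p of 0.0961 by edgeR, 9.16e-07 by DESeq2 and 0.00956 by limma. Macrophages also express Lgals3, and without the 3 cells with markers of another cell type the fold change was 1.41. Against latent library 4 alone, the animal that the annotation gives for the pool, it was 1.21.

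Of laminin-332, the basement membrane laminin of epithelia, the Lamb3 and Lama3 chains lay above the pool in every latent library. Lamb3, the β3 chain, was at 53.6, 40.8, 63.01 and 56.9 CPM against 22.3 CPM (adjusted p 0.368 by edgeR, 0.00307 by DESeq2). Lama3, the α3 chain, was at 23.9, 25.6, 33.2 and 16.9 CPM against 6.64 CPM (edgeR adjusted p 0.462, limma 0.0539). The average ratio was 2.41 for Lamb3 and 3.75 for Lama3. Fn1, fibronectin, showed the highest value in latent library 1, with 733, 558, 410.4 and 396 CPM against 193.1 CPM and 1.44 ± 0.34 (SE) on the log2 scale (adjusted p 0.368 by edgeR, 0.00117 by DESeq2, 0.00984 by limma). It was 1.44 without the 3 cells with foreign markers. Of the 21 tested matrix genes 12 lay all above the pool and 1 all below, which was the protease Mmp3 at 10.8, 32.3, 9.13 and 38.7 CPM against 77.6 CPM (limma adjusted p 0.0232, edgeR 0.685). DESeq2 called 2 of these genes higher and 0 lower, and limma 1 higher and 3 lower. The median of the list was 0.32 (0.05 on the limma scale).

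Junction and adhesion genes of epithelial cells were next. Cldn4, a tight junction claudin, was at 94.9, 126.2, 86.6 and 85.98 CPM in the latent libraries and 28.6 CPM in the pool, 3.44-fold higher on average (log2 fold change 1.78 ± 0.45 (SE), adjusted p 0.41 by edgeR, 0.00143 by DESeq2, 0.0206 by limma). Cldn3 stood at 263.1, 157.5, 188.6 and 195.1 CPM and 93.5 CPM (adjusted p 0.368 by edgeR, 0.00197 by DESeq2). Cdh1, E-cadherin of the adherens junction, was at 115.2, 98.3, 82.6 and 83.4 CPM against 46.2 CPM, with all latent libraries above the pool at 1.04 ± 0.29 (SE) on the log2 scale (adjusted p 0.451 by edgeR, 0.0262 by DESeq2). Dsp, the desmosomal plaque protein, ranged more widely at 35.3, 34.2, 36.6 and 13.8 CPM against 10.1 CPM (limma adjusted p 0.0467, edgeR 0.561).

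The rest of the epithelial list was mixed. Of its 19 tested genes 8 lay all above and 2 all below the pool, with a median of 0.60 (0.29 on the limma scale), and 5 were higher and 0 lower at an unadjusted p under 0.05. The keratin genes differed in direction. Krt19 stood at 133.1, 80.9, 70.6 and 95.6 CPM against 48.2 CPM, whereas Krt8 was at 1203, 1477, 1803 and 1850.2 CPM against 2342 CPM and its partner Krt18 at 1714, 1796, 1921 and 2251 CPM against 2254 CPM, and edgeR's adjusted p was at least 0.685 for all 3. Epcam, the epithelial adhesion molecule, was at 277.4, 330.7, 386 and 375.3 CPM against 254.6 CPM, with an interval of -0.16 to 1.02. Krt14 varied between latent libraries, from 94.7 to 428 CPM, and the pool at 113.2 CPM lay within that range. Fermt1, or kindlin-1, which activates integrins, was at 202.9, 210.1, 197.2 and 178.9 CPM against 89.2 CPM (adjusted p 0.2 by edgeR, 0.000143 by DESeq2, 0.0137 by limma).

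The integrated stress response is the program through which eIF2α phosphorylation and Atf4 answer amino acid shortage and other stress. Of the 18 tested members 13 lay all above the pool and 3 all below, with a median of 0.82 (0.42 on the limma scale), the highest of the lists drawn in the plot of gene lists. At an unadjusted p under 0.05 5 were higher and 0 lower, limma called 6 higher, DESeq2 1 and edgeR 0. Aars (chromosome 8, 111033144 to 111057664, plus strand), alanyl-tRNA synthetase, is an Atf4 target outside the list and had the smallest p of all genes. It stood at 66.4, 65.2, 61.4 and 54.7 CPM in the latent libraries and 21.1 CPM in the pool, 2.93-fold higher on average. The latent values were close to each other and far from the pool, and the log2 fold change of 1.55 ± 0.23 (SE) had adjusted p of 0.0818 by edgeR, 1.63e-08 by DESeq2 and 0.14 by limma. With the pool drawn down to 82 cells edgeR called Aars, Klf6 and Lgals3 higher, with an adjusted p of 0.0106 for Aars. The cells were chosen in a single random draw, and other draws were not made.

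Ddit3, which encodes the transcription factor CHOP, was at 154.3, 136.7, 94.6 and 99.6 CPM against 33.2 CPM, 3.65-fold higher on average. It was called by DESeq2 (adjusted p 0.00117) and limma (0.00634), and edgeR gave 0.41. The annotated gene overlaps Mars on the other strand. Trib3, a pseudokinase that restrains Atf4, showed 42.2, 42.9, 22.5 and 21.3 CPM against 6.83 CPM (limma adjusted p 0.00705, edgeR 0.621). Atf3, a stress-induced factor of the same family, was at 145.7, 104.8, 112.6 and 143.5 CPM against 41.7 CPM (limma 0.00705, edgeR 0.738). Latent libraries 1 and 2 were the highest for Ddit3 and Trib3, but no latent library reached down to the pool for these genes. Chac1, which degrades glutathione, stood at 38.2, 29.8, 25.2 and 19.6 CPM against 5.63 CPM (limma 0.0108, edgeR 0.821), and Nupr1, a small chromatin protein of stressed cells, at 490.2, 619, 409.8 and 428 CPM against 181.5 CPM (limma 0.00705, edgeR 0.57). Atf5 was low, at 20.3, 11.9, 19.5 and 10.4 CPM against 2.10 CPM (limma 0.0108). Ppp1r15a, the phosphatase subunit that ends the response, was at 42.7, 66.8, 55.8 and 54.5 CPM against 27.8 CPM (edgeR adjusted p 0.56).

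Atf4 mRNA itself stood at 199.7, 243.2, 162.1 and 199.7 CPM and 135.7 CPM, with an interval of -0.11 to 1.24. Asns, asparagine synthetase, was at 63.2, 65.7, 50.4 and 48.2 CPM against 39.8 CPM with an interval of -0.24 to 1.27, and its sign turned among cells with a cycle score above 0. The motif TGATGNAA, the core at which Atf4 and C/EBP proteins bind together, was found on either strand in the promoters of Asns, Atf3, Chac1, Nupr1, Slc7a11 and Trib3, 6 of 18 (33.3%), against 4.06% of all promoters. Shown are the 2 of these with the largest average ratio, with the match in capitals on the opposite strand, 5′ to 3′ on the strand of the gene (plus for Chac1, minus for Trib3).
Chac1, chr2:119350992-119351291: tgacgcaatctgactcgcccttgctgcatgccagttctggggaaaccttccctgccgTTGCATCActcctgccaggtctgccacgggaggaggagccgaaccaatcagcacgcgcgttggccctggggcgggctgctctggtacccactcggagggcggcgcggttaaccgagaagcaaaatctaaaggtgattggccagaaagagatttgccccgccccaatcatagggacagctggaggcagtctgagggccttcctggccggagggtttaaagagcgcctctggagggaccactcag
Trib3, chr2:152344011-152344310: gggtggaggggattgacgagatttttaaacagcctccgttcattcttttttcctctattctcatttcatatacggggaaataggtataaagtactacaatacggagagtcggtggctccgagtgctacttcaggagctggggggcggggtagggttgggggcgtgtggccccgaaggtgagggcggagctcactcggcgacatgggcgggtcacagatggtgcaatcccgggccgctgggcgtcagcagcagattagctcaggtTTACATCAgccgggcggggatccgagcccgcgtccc

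Genes that the unfolded protein response of the endoplasmic reticulum (ER) also drives were compared next. Of 18 tested ER chaperones and related genes 14 lay all below the pool and 1 all above, with a median of -0.39, and 6 were lower and 1 higher at an unadjusted p under 0.05. Hspa5, the ER chaperone BiP, was at 712, 765, 713 and 809 CPM against 992 CPM, -0.40 ± 0.17 (SE) on the log2 scale (edgeR adjusted p 0.677). Dnajb11, a co-chaperone of BiP, stood at 31.9, 41.01, 37.4 and 34.6 CPM against 64.5 CPM and was the only member that DESeq2 called (adjusted p 0.0458, edgeR 0.453). Xbp1, the transcription factor of this response, was at 37.3, 44.4, 37.2 and 54.8 CPM against 73.5 CPM (edgeR adjusted p 0.561), and Pdia4, a disulfide isomerase, at 14.6, 25.8, 20.2 and 21.9 CPM against 41.9 CPM (edgeR adjusted p 0.594). The member all above the pool was Sel1l, of the ER degradation complex, at 51.8, 33.6, 36.3 and 42.2 CPM against 20.5 CPM (edgeR adjusted p 0.522).

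Metabolic lists also had medians below 0. For cholesterol synthesis 13 of 22 tested genes lay all below the pool and 1 all above, with a median of -0.53 (-0.91 on the limma scale), and 3 were lower and 0 higher at an unadjusted p under 0.05. Those were Idi1 at 4.03, 4.42, 6.04 and 3.40 CPM against 10.52 CPM, Sc5d at 24.6, 28.1, 22.8 and 24.9 CPM against 39.99 CPM, and Msmo1 at 20.2, 32.4, 28.3 and 21.9 CPM against 41.2 CPM, with edgeR adjusted p of at least 0.56. For glycolysis 11 of 17 lay all below and 2 all above, with a median of -0.31. Pkm, pyruvate kinase, was at 552, 705, 729 and 728 CPM against 1026 CPM, and Pgam1, phosphoglycerate mutase, at 231.5, 260.7, 245.3 and 261.4 CPM against 409 CPM, whereas the hexokinase gene Hk1 was at 24.8, 31.1, 32.2 and 20.2 CPM against 15.3 CPM. None of these was called by any of the 3 tools. The 13 protein genes of the mitochondrial genome had a median of -0.35 (-0.16 on the limma scale) with 10 all below the pool, mt-Nd1 standing at 1641, 1612, 2221 and 1424 CPM against 2777 CPM, and mitochondrial reads made up 1.61% to 2.25% of the latent libraries and 2.39% of the pool. Of 88 tested nuclear genes of oxidative phosphorylation 31 lay all below the pool (35.2%) and 13 all above (14.8%), beside backgrounds of 24.8% and 23.9%. Their median was -0.06 (-0.16 on the limma scale), with 7 lower and 2 higher at an unadjusted p under 0.05. Ribosomal proteins had a median of -0.01 (0.10 on the limma scale) over 84 genes, with 21 all above and 19 all below.

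Class I antigen presentation was compared because gating on day 1.5 relies on a class I protein. Of 13 tested class I and immunoproteasome genes 8 lay all above the pool and 1 all below, with a median of 0.30. B2m, the light chain of all class I molecules, was at 2369.9, 2079, 2466 and 2321 CPM against 1482 CPM, without overlap (log2 fold change 0.64 ± 0.19 (SE), adjusted p 0.462 by edgeR, 0.0789 by DESeq2 and 0.0333 by limma). B2m is also in the housekeeping panel by which the authors scaled the log10 values that limma used. H2-K1 stood at 675, 708, 715 and 606 CPM and 481 CPM, with an interval of -0.19 to 1.176, and H2-D1 at 1809, 2103, 1921 and 1665 CPM and 1433 CPM. Reads of these 2 class I genes can be shared with near copies in the same cluster. Psmb8, an immunoproteasome subunit, was at 404, 322.1, 358.3 and 379.5 CPM against 240.4 CPM (edgeR adjusted p 0.56).

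Of 29 tested interferon-stimulated genes 13 lay all above the pool and 0 all below, with a median of 0.70 (0.28 on the limma scale) and 3 higher at an unadjusted p under 0.05. Ifi27 was at 497, 506, 490.0 and 571 CPM against 261.3 CPM, the one member that DESeq2 called (adjusted p 0.00906, edgeR 0.41). Ifitm3, an antiviral membrane protein, stood at 1900.3, 1458, 1712 and 1749 CPM against 1115 CPM (edgeR adjusted p 0.427, DESeq2 0.06). Its log2 fold change was 0.61 by edgeR and 0.20 on the limma scale. Ddx58, which encodes the RNA sensor RIG-I, was at 28.2, 26.9, 29.8 and 18.004 CPM against 11.4 CPM. In these 3 genes no latent library fell to the level of the pool.

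The list of NF-κB targets and inflammatory genes had a median of 0.60 (0.30 on the limma scale) over 19 tested genes, with 8 all above and 1 all below the pool. Nfkbia, which encodes the inhibitor IκBα and is induced by NF-κB, was at 724, 639, 779 and 729.9 CPM against 358.4 CPM (log2 fold change 1.003 ± 0.32 (SE), adjusted p 0.499 by edgeR, 0.0375 by DESeq2 and 0.00705 by limma). Nfkb2 stood at 61.3, 57.002, 62.8 and 40.8 CPM against 35.8 CPM, and Saa3, an acute phase protein, at 126.3, 118.8, 102.5 and 84.2 CPM against 68.4 CPM. Ccl5, a chemokine, was uneven, at 143.4, 79.4, 92.2 and 311.3 CPM against 19.7 CPM, with its highest value in latent library 4 (edgeR adjusted p 0.685). Its log2 fold change of 2.99 was 3.01 without the 3 cells with markers of another cell type. Cxcl16, a membrane-bound chemokine outside that list, was at 102.6, 141.4, 126.6 and 128.5 CPM against 56.7 CPM (adjusted p 0.451 by edgeR, 0.0177 by DESeq2, 0.00288 by limma).

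**Figure D2:**
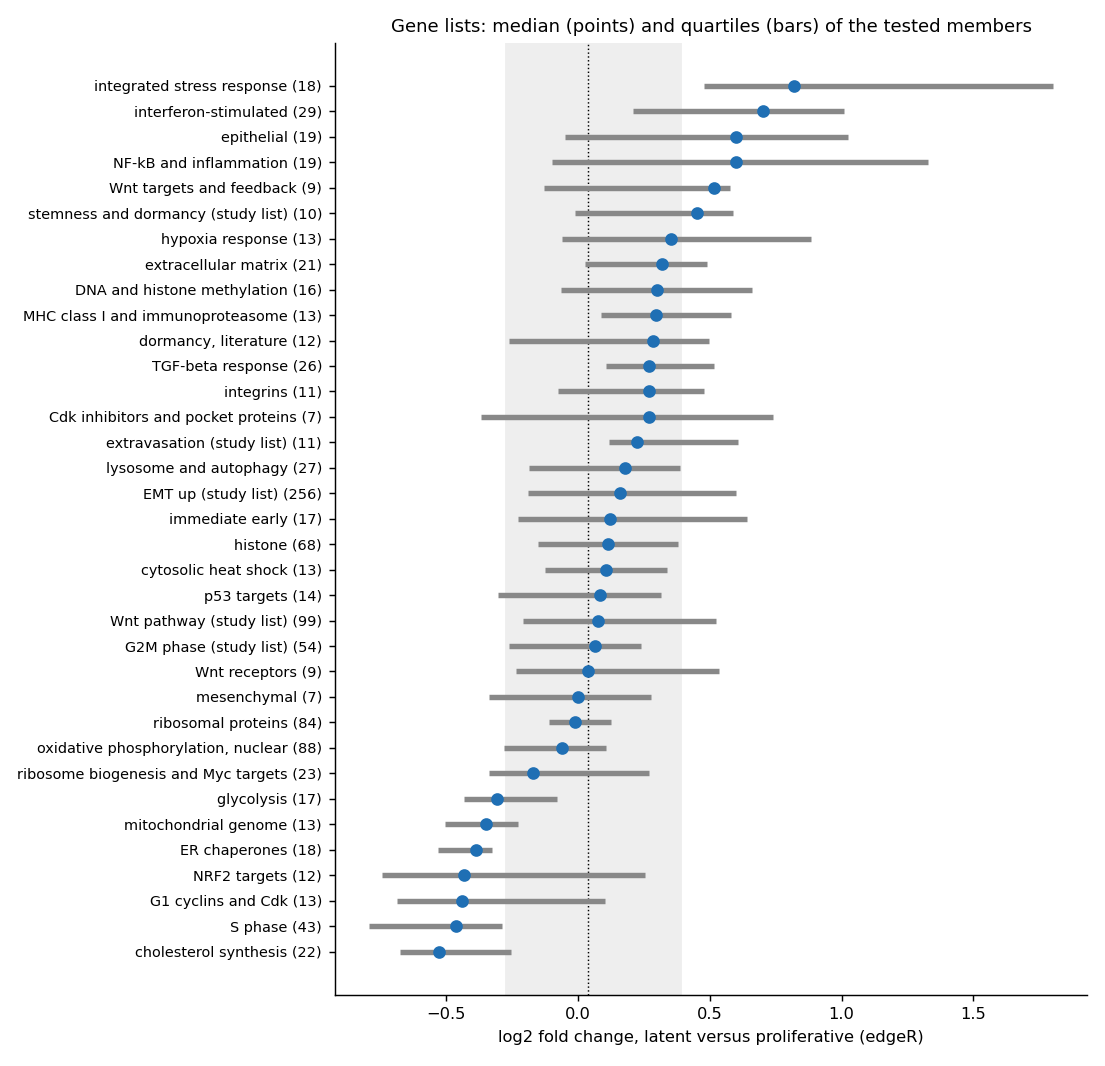
Log2 fold change of latent versus proliferative TCs (edgeR) for lists with at least 7 tested genes, with the number tested in parentheses. Points are medians, bars run between the quartiles, and the dotted line and shaded band give the median and quartiles of all 12255 genes. The integrated stress response list lies highest at a median of 0.82, and the cholesterol list lowest at -0.53, just below the S-phase list at -0.46.

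Latent TCs were set against the programs that the study connects with latency. The study tested latent-gate cells scoring under -1 against proliferative-gate cells above 0, after regressing out cell cycle genes, and ranked genes for set enrichment. It also scored its lists along a trajectory of the cells. Whole gates are compared here, so values of this list and of the Wnt list below are not a like-for-like check of the study. Of the study's list for epithelial-to-mesenchymal transition (EMT) 66.7% could be tested, with a median of 0.16 (0.02 on the limma scale). In it 93 genes lay all above (36.3%) and 52 all below (20.3%) the pool. At an unadjusted p under 0.05 22 were higher and 10 lower, and DESeq2 called 7 higher and 3 lower, limma 2 and 6, edgeR 0. Beside Fn1 and Pmepa1 (below), the higher members included Klf6, a zinc finger factor, at 287.3, 303.5, 248.6 and 283.1 CPM against 154.2 CPM, and Cald1, the actin-binding caldesmon, at 535, 466, 449 and 533 CPM against 278.02 CPM (adjusted p 0.00471 and 0.0197 by DESeq2, 0.368 and 0.41 by edgeR). Igfbp4, which binds insulin-like growth factors, was lower at 300.2, 298.2, 316.9 and 335.7 CPM against 583 CPM (adjusted p 0.368 by edgeR, 0.00664 by DESeq2, 0.038 by limma). Vim, the intermediate filament protein of mesenchymal cells, stood at 1779.7, 1773, 1958 and 1853 CPM against 2419 CPM, below the pool in all 4 libraries (log2 fold change -0.39 ± 0.16 (SE), edgeR adjusted p 0.677, limma 0.0375). The study compiled its EMT and Wnt lists from a public gene set database, and scored them after finding such gene sets enriched in these samples.

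The study's Wnt pathway list had a median of 0.08 (-0.01 on the limma scale) over 99 tested genes, with 31 all above and 27 all below the pool, and 5 higher and 4 lower at an unadjusted p under 0.05. Its shares of 31.3% and 27.3% stand beside backgrounds of 23.9% and 24.8%. Of this list limma called 2 genes lower and 0 higher, and DESeq2 and edgeR called 0. Axin2, the feedback inhibitor induced by β-catenin, was too low to test, at 0.588, 0, 0.0792 and 0.0689 CPM against 0.00559 CPM, and no day 1.5 or culture library held a read of it. The 9 tested Wnt targets and feedback genes had a median of 0.52, with 5 all above (55.6%) and 2 all below the pool. On the limma scale their median was -0.07. At an unadjusted p under 0.05 1 was higher and 1 lower. Limma called 1 of them lower and 0 higher, and DESeq2 and edgeR called 0. The 9 tested Wnt receptors had a median of 0.04 (-0.01 on the limma scale). For the study's stemness and dormancy list the median was 0.45 (0.13 on the limma scale) over 10 genes, with Klf4 at 64.2, 38.1, 23.3 and 28.7 CPM against 10.3 CPM (edgeR adjusted p 0.56, limma 0.0581).

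Pmepa1, a feedback inhibitor of transforming growth factor-β signaling, was the one member of that response called by DESeq2 and limma, at 35.9, 36.3, 39.1 and 30.5 CPM against 11.1 CPM. Its log2 fold change was 1.68 ± 0.32 (SE; adjusted p 0.2 by edgeR, 2.78e-05 by DESeq2 and 0.00909 by limma). The list of 26 tested genes had a median of 0.27, with 7 all above and 1 all below the pool. Of 12 tested dormancy genes collected from the literature 5 lay all above and 3 all below, with a median of 0.28 (0.06 on the limma scale), and Axl, a receptor kinase tied to dormancy in other models, stood at 46.6, 48.2, 44.2 and 31.1 CPM against 69.7 CPM (edgeR adjusted p 0.608). Dnmt1, the maintenance DNA methyltransferase, was at 110.5, 109.1, 115.01 and 115.3 CPM and 129.3 CPM, an interval of -0.61 to 0.21.

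Since the gates differed in their cycle scores, the comparison was repeated within cells scoring at most 0 (25 to 37 cells per latent library, 51 in the pool) and within cells scoring above 0 (48 to 59 cells, and 78.5% of the pool). edgeR called 0 genes in either, with 0.747% of genes higher and 1.65% lower at an unadjusted p under 0.05 among the former (low-scoring cells) and 2.08% and 2.43% among the latter (high-scoring cells). Lgals3 had log2 fold changes of 1.62 and 0.93 in low-scoring and high-scoring cells, Aars 2.26 and 0.88, and Cldn4 2.35 and 0.70, each larger among low-scoring cells. Ddit3 showed 1.44 and 1.81, Fn1 1.41 and 1.20, and Nfkbia 0.96 and 0.94. The low-scoring stratum did not match cycle scores between the gates. Under -1 lay 20 of 28, 23 of 37, 14 of 25 and 11 of 28 low-scoring cells of latent libraries 1 to 4. In the pool it was 9 of 51. The difference between the 2 strata was not tested for any gene.

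List medians were taken in the same strata. The integrated stress response had medians of 0.97 in low-scoring and 0.47 in high-scoring cells, and epithelial genes 0.69 and 0.42. Interferon-stimulated genes had 1.03 and 0.18, and NF-κB genes 0.92 and 0.06, against 0.06 and 0.02 for the 12255 genes. S-phase genes were at -1.25 and -0.26, but these genes also set the strata. Ccnd1, which is not among the scored genes, was at -1.33 and -0.43.

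**Figure D3:**
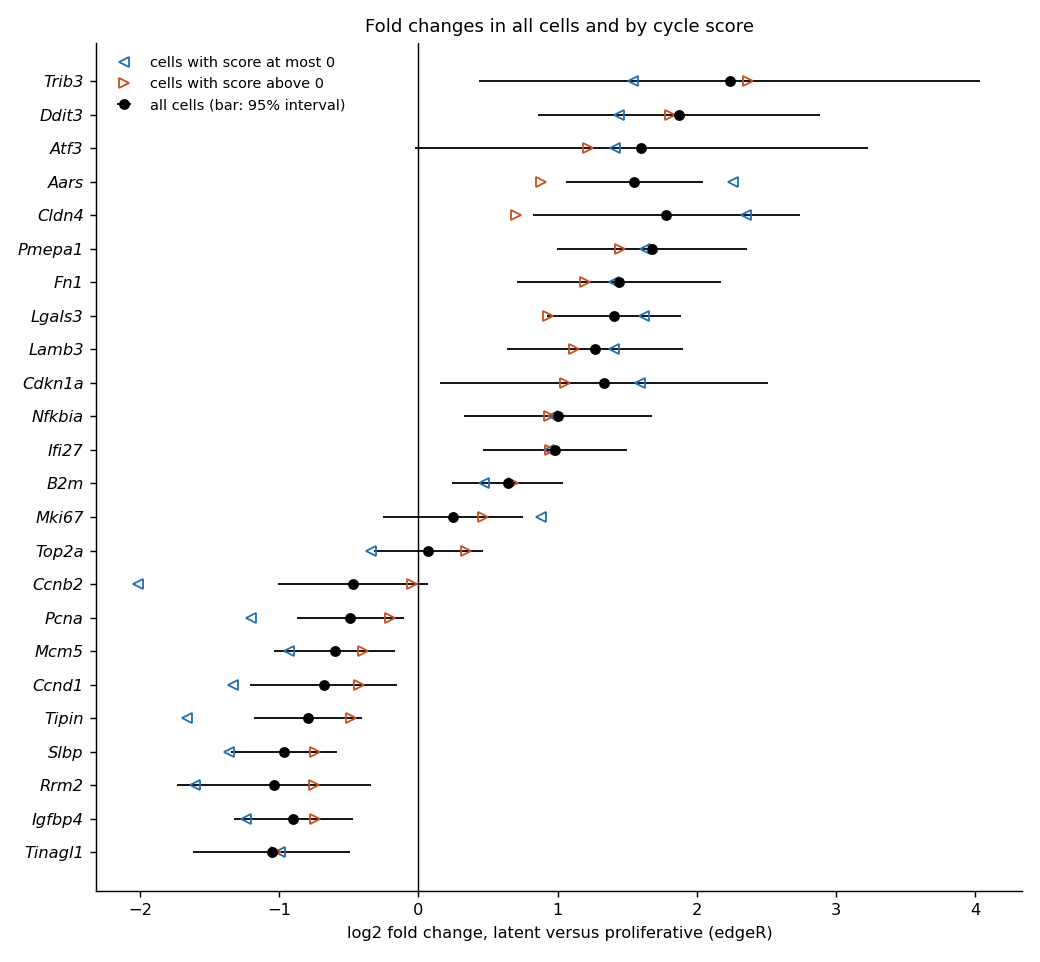
Log2 fold change of latent versus proliferative TCs (edgeR) for 24 genes in all cells (filled circles with 95% intervals), in cells with a summed cycle score of at most 0 (left-pointing triangles) and above 0 (right-pointing triangles). Genes from Trib3 to B2m lie right of 0 in all 3 sets, those from Pcna to Tinagl1 left of it, and Top2a changes side.

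Levels on day 1.5 and in culture place these differences, as a description without a test. Lgals3 was at 651 to 984 CPM in the extravascular and 968 to 1177 CPM in the intravascular libraries, so the latent libraries stood above every day 1.5 library while the pool lay among the extravascular ones. Aars was at 28.8 to 35.3 CPM and 35.2 to 40.2 CPM on day 1.5, between the latent libraries and the pool, and at 74.6 CPM in culture. Ddit3 was highest in culture, at 302.4 CPM, and on day 1.5 ranged from 30.7 to 85.3 CPM, below every latent library. Lamb3 was at 69.9 to 87.4 CPM and 63.4 to 104.8 CPM on day 1.5. All 4 latent libraries and the pool thus lay below every day 1.5 library. The same held for Fermt1, at 211.2 to 371.7 CPM on day 1.5. For Pmepa1 (33.9 to 60.1 CPM on day 1.5) and Cdkn1a (56.1 to 184.5 CPM) the pool lay below every day 1.5 library. No latent library lay above these ranges. Nfkbia ran from 299.1 to 730.6 CPM on day 1.5, with only latent library 3 above and the pool within. By contrast, all 4 latent libraries lay above every day 1.5 library for Cldn4, Crip2, Syne1 and Zfp36l1. For Ccnd1 and Tinagl1 the pool was above all other libraries, at 1642 and 578 CPM, against at most 1177 and 349.8 CPM elsewhere.

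**Figure D4:**
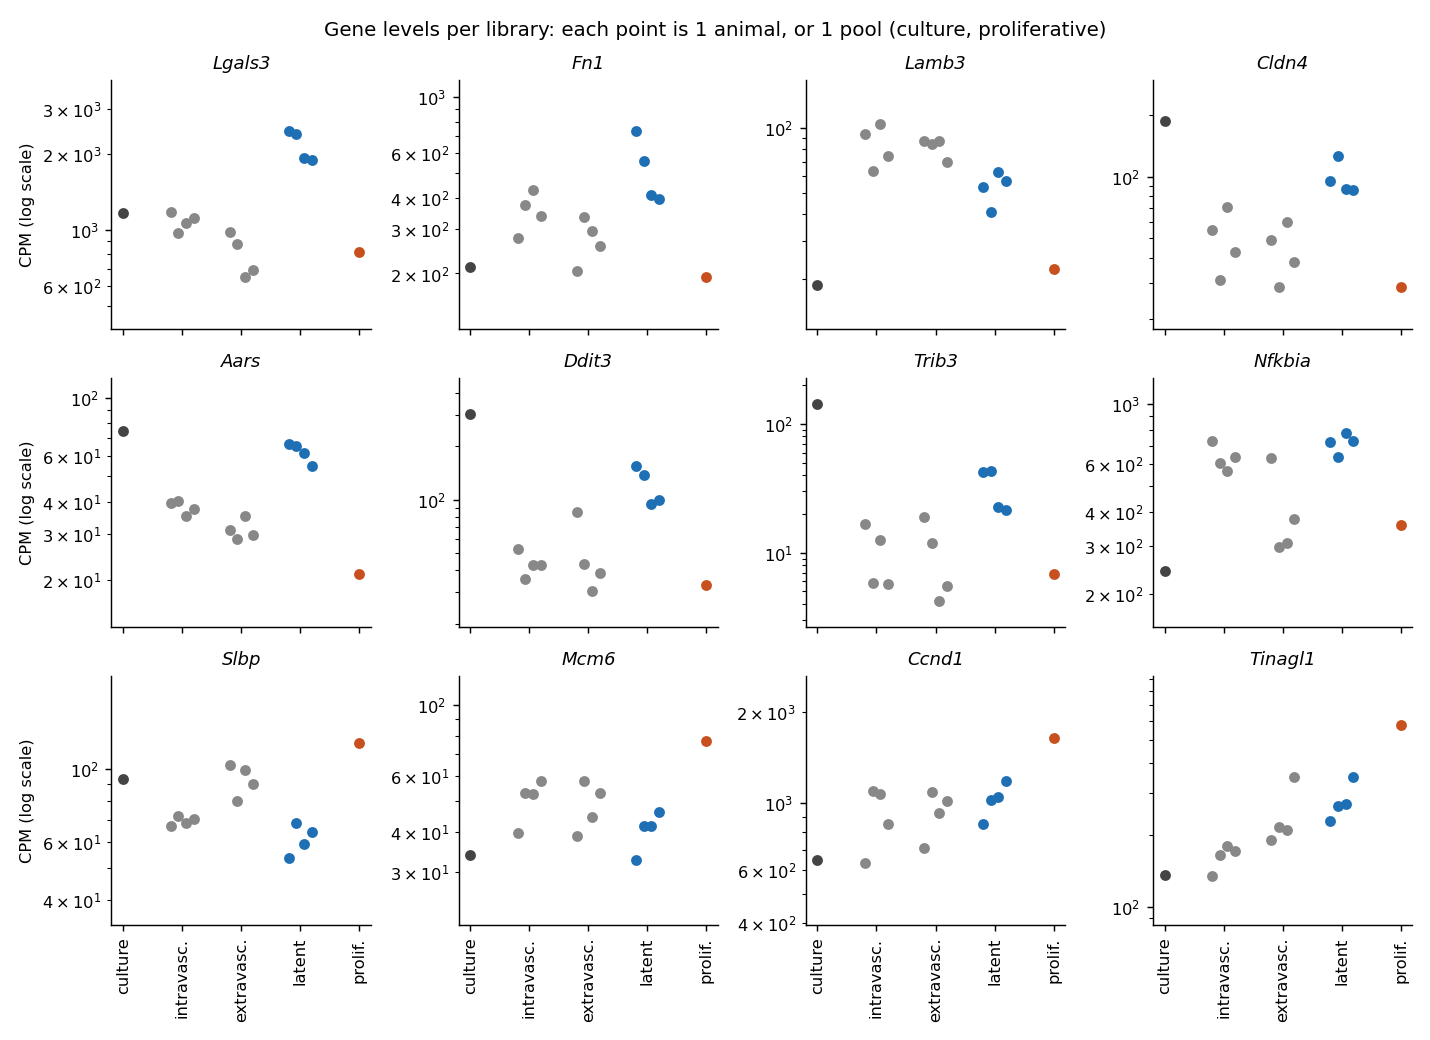
TMM-scaled CPM (log axis; culture raw CPM) of 12 genes in each library, where a point is 1 animal, or 1 pool for culture and the proliferative gate. Lgals3 is highest in the 4 latent libraries (1885 to 2449 CPM), while for Ccnd1 the pool, at 1642 CPM, is the highest point.

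Other genes called by both DESeq2 and limma are given here. Zfp36l1, which destabilizes short-lived mRNAs, was at 380.2, 376.4, 346.98 and 373.5 CPM against 157.6 CPM (edgeR adjusted p 0.428). Crip2, a LIM domain protein, stood at 132.99, 116.8, 116.4 and 114.4 CPM against 48.6 CPM, Syne1, which links the nucleus to actin, at 70.7, 70.6, 85.8 and 67.6 CPM against 28.8 CPM, and the dynein heavy chain gene Dync1h1 at 180.2, 157.7, 147.6 and 113.1 CPM against 72.6 CPM. Zfp280d was at 182.4, 154.9, 137.4 and 87.4 CPM against 66.1 CPM and 4930523C07Rik at 179.99, 178.7, 148.9 and 152.1 CPM against 73.4 CPM. Prl2c3, a member of the placental prolactin family with near-identical copies, was at 269.9, 340.7, 257.2 and 60.1 CPM against 31.6 CPM, and against latent library 4 alone its log2 fold change fell to 0.93 from 2.87.

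On the lower side, Tinagl1, a matricellular protein of basement membranes, was at 228.1, 264.8, 270.1 and 349.7 CPM against 578 CPM (adjusted p 0.41 by edgeR, 0.0121 by DESeq2, 0.00579 by limma). Cbx3, heterochromatin protein 1γ, stood at 84.8, 47.6, 75.9 and 58.9 CPM against 138.997 CPM, and the architectural chromatin gene Hmga1b at 330.4, 415, 466 and 380.2 CPM against 665 CPM. St3gal4, a sialyltransferase, was at 26.8, 39.6, 35.6 and 45.8 CPM against 81.6 CPM, and Ehd2, a protein of caveolae, at 30.1, 22.6, 27.4 and 34.1 CPM against 54.9 CPM. In these 5 genes the highest latent library stayed below the pool, with edgeR adjusted p of at least 0.368.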

How the data were processed

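Single TCs were sorted into 96-well plates and sequenced by a modified SMART-Seq2 protocol, which has no molecular identifiers. The authors made the deposited estimated counts with bcl2fastq and Salmon 0.7.2 on GRCm38, without further scaling. For the deposited log10 values the authors divided each cell by the mean of a housekeeping panel that includes B2m, multiplied it by a constant and took log10. Per the study's methods, TCs with over 5% mitochondrial transcripts or too few genes were removed, yet 15 kept latent cells and 16 kept proliferative cells exceeded 5% of reads here.

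Estimated counts of kept cells were summed per animal, named by the deposited annotation, or per pool, and rounded to whole numbers. Genes with a mean of at least 1 CPM over 13 libraries (4 intravascular, 4 extravascular, 4 latent and 1 proliferative pool) were tested with the quasi-likelihood test of edgeR 4.0.16 after TMM scaling, in R 4.3.3, with Benjamini-Hochberg adjustment at 0.05. The residual degrees of freedom were 9. DESeq2 1.42.0 left 8553 genes without an adjusted p. Limma 3.58.1 used the mean log10 values, put on a log2 scale. Printed CPM are TMM-scaled, except raw CPM in culture, in the paragraph on cell type markers and for single cells, and are not per length, so levels of different genes were not compared. Cycle scores came from AddModuleScore of Seurat 5.3.0 on the log10 values. The fitting steps were tested on simulated data.

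Among genes past the threshold the naming rule took those with the largest and smallest fold changes and, per list, up to 3 in each direction, which gave 0 genes. It also fixed 22 genes whatever their result. All other genes named were chosen after their values were seen, and members and lists were chosen with earlier results of these data known. Positions are from GENCODE vM21 (GRCm38) and promoters from RefSeq (GRCm38.p6). No column of per-sample values was left unused. Intervals of shares cover counting error only. Some genes are not reported here.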

Additional observations from a re-analysis of the deposited data

Results flagged for a closer look

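For each value named the highest or lowest of the 4 latent libraries was compared with the rest by Dixon's ratio, the gap to the nearest library over the whole range. The ratio passed Dixon's 95% limit for 6 values, or 5.36% of those tested, close to the 1 in 20 that chance alone flags. Dsp had a ratio of 0.894, with latent library 4 at 13.8 CPM against 34.2 to 36.6 CPM in the others and 10.1 CPM in the pool. Bst2, an interferon-induced membrane protein, had a ratio of 0.895, with latent library 1 at 84.4 CPM against 47.5 to 51.3 CPM in the others. For Pkm the ratio was 0.864, with latent library 1 lowest at 552 CPM against 705 to 729 CPM. Acat2, of cholesterol synthesis, had a ratio of 0.852, again with latent library 1 lowest, at 15.3 CPM against 24.4 to 25.9 CPM and 47.6 CPM in the pool. Crip2 had a ratio of 0.869, with latent library 1 at 132.99 CPM against 114.4 to 116.8 CPM, all far above the pool. Axin2 had a ratio of 0.865, with latent library 1 at 0.588 CPM and the others at no more than 0.0792 CPM.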

How the results depend on the processing

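edgeR called 0 genes in either direction with size factors of DESeq2, with other filters on low counts, with only the 5 day 3.5 libraries, with at most 5% mitochondrial reads, within either cycle stratum, without cells with markers of another type, and without any 1 latent library (0 to 0). With only latent library 4 against the pool it called 0, which is 1 library against 1 and says nothing of stability. DESeq2 called 55 higher and 35 lower, limma 40 and 85, and limma with centred libraries 74 and 77. With the pool drawn down, in a single random draw, edgeR called 3 higher. The median of all genes was 0.04 by edgeR, -0.06 by limma and 0.02 after centring. The share of cells scoring above 0 differed by -16.3 to -11.7 percentage points without each latent library, and by 1.97 with the limit at 0.5, the only setting that turned it. It was -9.00 with the mean log2(CPM + 1) as score. The settings with only latent library 4, with the block, without marker cells and with thinned cells were chosen after seeing the data, and the limit of -1, which the study set for latent cells, was added then.

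Of the genes compared, 94 kept their direction under all 18 alternatives and 10 did not, and 25 of 1872 values reversed. The limma log2 fold change, from means over cells, was over 1.5 times smaller than that of edgeR for 10 genes, over 1.5 times larger for 28 and of the other sign for 3. By limma Mki67 stood at -0.17 (centred -0.089), Top2a at -0.42 (-0.33) and Cdk1 at -0.46 (-0.37). With the pool drawn down Top2a stood at -0.25, Cdk1 at -0.26, Cdkn1b at -0.13 and Myc at 0.21. Among cells scoring at most 0 Top2a stood at -0.34, Cdk1 at -0.81 and Cdkn1b at -0.029. Among cells scoring above 0 Ccnb1 stood at 0.0044, Dnmt1 at 0.11, Tyms at 0.10, Birc5 at 0.21 and Asns at -0.054. With only latent library 4, and with the replicate block by animal, Top2a stood at -0.030, Cdk1 at -0.047 and Birc5 at 0.19. Leaving out 1 latent library moved Birc5 between -0.27 (without library 4) and 0.026 (without library 2). The cause of these reversals was not tested.

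Pairing by the labelled replicate was not possible, since the names of the cells in the deposited tables carry no replicate number, and the annotation gives all proliferative cells 1 animal. A paired fit with that annotated animal as a replicate block left 3 residual degrees of freedom and rests on latent library 4 against the pool. It called 0 genes higher and 0 lower, with 2.43% of genes higher and 1.51% lower at an unadjusted p under 0.05 and a smallest adjusted p of 0.26, and 1 pair says nothing of stability. The planned split into 4 proliferative replicates, with and without the replicate number as a block, and the exact test of labelled score shares were therefore not run. Without replicates of the proliferative gate, its spread was not measured.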
